A study of Homo sapiens with 11 samples.

Results

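TGFBI and 9 genes of TGF-beta signalling were followed in xenograft tumours of mice given evexomostat or vehicle. The 10 genes were taken by symbol from a table of 28152 gene symbols and hold 3 ligands (TGFB1, TGFB2, TGFB3), the type I and type II receptors (TGFBR1, TGFBR2), the signal carrier SMAD3, the inhibitory SMAD6 and SMAD7, the nuclear co-repressor SKIL, and TGFBI. All 10 passed the filter on low counts. TGFBI was chosen by its counts in these same libraries, since it differed between the same groups, so its values are a description and carry no test. The other 9 were added by their place in the pathway, with earlier results of these data known.

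The tumours grew from cells labelled BT-474, an established line of human breast cancer with the labelled genotype HR+/Her2+, placed in the mammary fat pad of female athymic nude mice, which lack mature T cells but keep macrophages and other innate cells. Host mice carried an estradiol pellet (0.72 mg, 90 days) and were eligible once a tumour passed 95 cubic millimetres. The 6 vehicle libraries come from mice that received mannitol in water and the 5 treated libraries from mice that received evexomostat (SDX-7320), an inhibitor of methionine aminopeptidase 2, at 12 mpk, both under the skin every 4 days, and the labels give day 33 for all libraries. The titles number the libraries within each group. They were taken as separate tumours, which the titles do not state, and the labels name no batch.

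TGF-beta ligands are secreted in a latent form bound to the matrix and are released by integrins and proteases. The active ligand brings the type II receptor TGFBR2 together with the type I receptor TGFBR1, which phosphorylates SMAD2 and SMAD3. These join SMAD4, enter the nucleus and switch on targets that include the pathway's own brakes SMAD7 and SKIL. TGFBI, named for its induction by TGF-beta, is a secreted matrix protein of FAS1 domains that binds collagens and integrins. In breast epithelium the pathway is known both for restraining growth and for promoting mesenchymal traits in advanced tumours.

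Library totals ranged from 22808033 to 39249329 counts. In vehicle replicate 001 the top 100 genes took 23.9% of counts, and in the other 10 libraries 16.2% to 17.9%. Markers of the labelled cell type were low. ESR1 had 1 to 17 counts per library, KRT19 0 to 46, CDH1 4 to 43 and EPCAM 9 to 149. FOXA1 lay between 0.588 and 1.91 CPM, GATA3 between 2.94 and 10.2 CPM and ERBB2 between 26.7 and 66.5 CPM. The keratins KRT8, at 167.3 to 561.8 CPM, and KRT18, at 100.4 to 193.0 CPM, were higher. The identity of the line rests on the labels. CPM (counts scaled to a common library total) are corrected by TMM (trimmed mean of M-values) factors. Of the platelet markers, PF4, PPBP and GP9 were at 0 counts in every library.

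TGFBI was the member with the widest separation between the groups. It was at 27.6, 15.9, 17.9, 28.7, 51.1 and 30.1 CPM in vehicle replicates 001, 003, 004, 005, 006 and 007. Under evexomostat it was at 108 CPM in replicate 002, 72.6 in 003, 72.7 in 004, 113 in 005 and 142.2 in 007. The groups did not overlap, and the lowest treated library lay 1.42-fold above the highest vehicle library. Within vehicle the highest library was 3.21-fold above the lowest, and within evexomostat 1.96-fold. The means were 28.5 ± 12.5 CPM (SD, n = 6) and 101.7 ± 29.6 CPM (SD, n = 5), 3.56-fold apart in the fit (log2 fold change 1.83, SE 0.28). In a bulk tumour, more cells of a type and more RNA per cell cannot be told apart.

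In the edgeR comparison over 16653 genes, 0.606% of genes passed an adjusted p-value of 0.05, 0.174% as higher and 0.432% as lower under evexomostat. TGFBI was the 1 member among them, which is why it was chosen. Groups did not overlap in 2.97% of tested genes, and TGFBI was again the 1 member among them. The 22 alternative fits reuse the libraries by which TGFBI was chosen, so they describe how the call depends on settings and add no support. Log2 fold changes were 1.68 to 2.11, and TGFBI passed in 19. The call was lost without evexomostat replicate 002 (log2 fold change 1.81), without 005 (1.79) and without 007 (1.68). Those same 3 fits called 2, 1 and 3 genes in all. Without vehicle replicate 001 the call was kept. The authors' deposited table gives TGFBI a log2 fold change of 1.91.

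**Figure D1:**
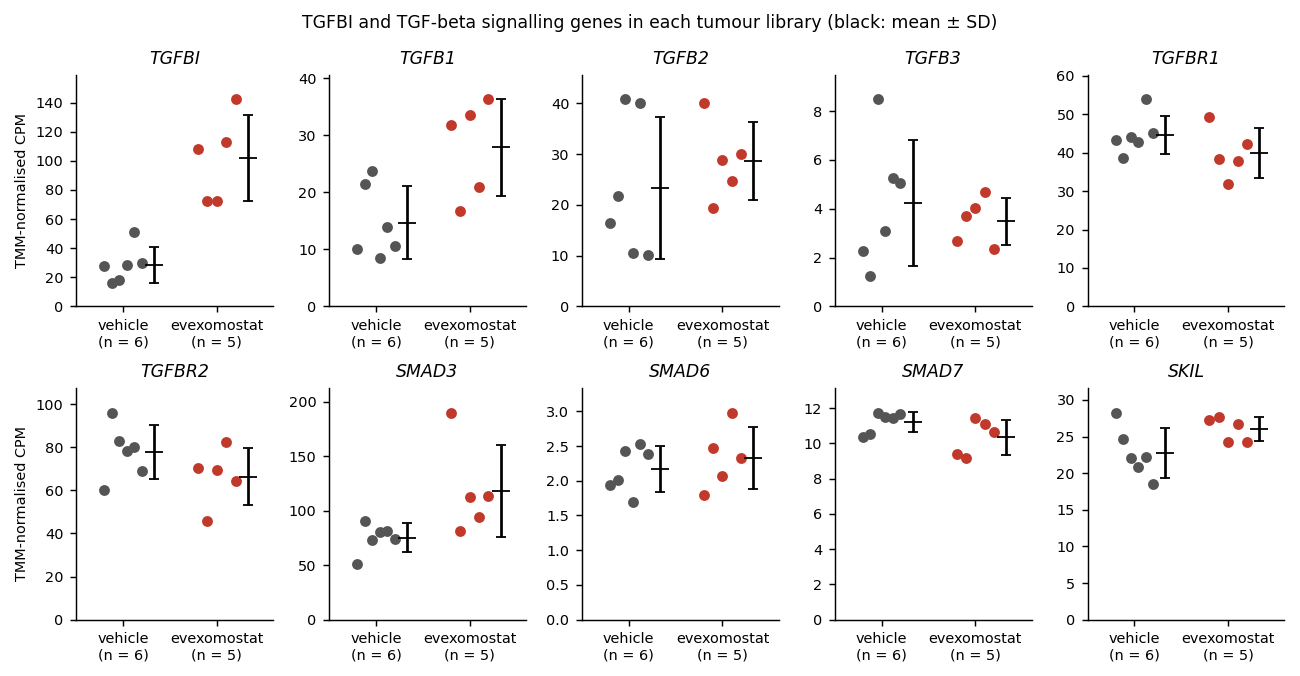
TMM-normalised CPM (vertical axis, starting at 0) of the 10 genes in the 6 vehicle and 5 evexomostat libraries, 1 point per tumour, with the mean and SD in black. TGFBI is the panel in which the groups do not overlap, with vehicle at 15.9 to 51.1 CPM and evexomostat at 72.6 to 142.2 CPM.

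TGFBI is also made by macrophages and fibroblasts, so marker levels of other cell types are given beside it. The summed level of 10 macrophage markers was 84.0 to 124.6 CPM under vehicle and 91.1 to 105.2 CPM under evexomostat. Most of it came from CD68, LYZ and ITGAM, with means over all libraries of 38.7, 27.7 and 23.6 CPM. AIF1, a macrophage marker, had 0 to 2 counts per library. The 8 fibroblast markers summed to 243.0 to 1817 CPM and 284.8 to 821.8 CPM, most of it COL3A1. The 6 endothelial markers summed to 10.5 to 22.4 CPM and 9.92 to 14.0 CPM, with CDH5 at 0 to 2 counts and EMCN at 0 to 5. The 9 skeletal muscle markers summed to 2.09 to 21.1 CPM and 2.36 to 470.9 CPM, the last value from evexomostat replicate 005. These ranges overlapped between the groups for all 4 lists. In edgeR 0 of their 27 tested genes passed the adjusted threshold, and at an unadjusted p under 0.05 there were 6 higher, all of the muscle list, and 1 lower, the macrophage gene CD163, against 4.82% higher and 8.55% lower among all tested genes. Their part in the TGFBI difference was not tested. Once group means were removed, TGFBI correlated with the summed levels at r = 0.21 for macrophage, -0.07 for fibroblast, 0.40 for endothelial and -0.02 for muscle markers over 11 libraries, as a description. Single markers of a list differed in sign. PDGFRB, a fibroblast and pericyte receptor at 11.1 to 48.9 CPM, had r = 0.71. The rest of the fibroblast list lay between -0.33 (DPT) and 0.20 (FAP). MRC1, a macrophage receptor with 6 to 20 counts per library, had r = 0.59. The other tested macrophage markers lay between -0.27 (CD163) and 0.39 (LYZ). Whether reads of mouse tissue were counted on the human symbols of TGFBI or of the markers was not tested. The sums can therefore not be read as the content of host cells.

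The stretch of DNA just before the TGFBI start is shown because this is the gene whose level separated the groups. The 250 bases before the RefSeq start (GRCh38.p14, chr5:136028738-136028987, plus strand) are 72.8% G or C and hold GGCGCC, a GC-rich SMAD motif, printed in capitals.

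TGFBI: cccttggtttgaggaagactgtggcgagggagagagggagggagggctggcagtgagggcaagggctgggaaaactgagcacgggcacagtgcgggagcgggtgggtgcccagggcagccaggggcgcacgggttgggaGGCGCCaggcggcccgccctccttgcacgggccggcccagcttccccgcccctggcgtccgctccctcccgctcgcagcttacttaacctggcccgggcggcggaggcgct

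GGCGCC, its own reverse complement, begins 111 bases before the TGFBI start and occurs in 16.4% of 35116 RefSeq windows of this length. The SMAD palindrome GTCTAGAC (in 0.182% of windows) and the CAGA-box letters CAGACA, or TGTCTG on the other strand (in 13.6%), were not found in this window. The motifs do not overlap each other here, and no binding was measured.

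Among the ligands, TGFB1, the form most often linked to tumours, differed most, without passing the test. Its vehicle libraries ranged from 8.40 to 23.8 CPM, with a median of 12.2. Under evexomostat it was at 31.8 CPM in replicate 002, 16.7 in 003, 33.6 in 004, 20.9 in 005 and 36.3 in 007. The 3 highest treated libraries lay above all vehicle libraries, and the other 2 fell among them. The log2 fold change was 0.92 (SE 0.30, adjusted p 0.192 in edgeR). In the 22 alternatives it stayed between 0.73 and 1.11, with adjusted p-values of 0.058 to 0.413. The authors' deposited table gives 0.99 and an adjusted p of 0.0786.

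TGFB2, the isoform that needs the co-receptor betaglycan to bind TGFBR2 well, ranged from 10.1 to 40.8 CPM under vehicle (median 19.0) and from 19.4 to 40.1 CPM under evexomostat (median 28.9). Both groups spanned much the same levels, with a log2 fold change of 0.30 (SE 0.36, adjusted p 0.792 in edgeR). TGFB3, the third ligand, was low, at 1.26 to 8.48 CPM under vehicle and 2.33 to 4.70 CPM under evexomostat. Its log2 fold change of -0.29 (SE 0.40, adjusted p 0.830 in edgeR) had a positive sign without vehicle replicate 004, the library with its highest level.

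Neither receptor passed the test. TGFBR1 was at 38.7 to 53.9 CPM under vehicle and 31.8 to 49.4 CPM under evexomostat, giving a log2 fold change of -0.16 (SE 0.13, adjusted p 0.664 in edgeR). TGFBR2 was at 60.1 to 96.0 CPM under vehicle and 45.7 to 82.6 CPM under evexomostat, giving a log2 fold change of -0.23 (SE 0.16, adjusted p 0.603 in edgeR). Both receptor transcripts varied little between tumours beside the ligands, with vehicle SDs of 5.03 CPM on a mean of 44.6 for TGFBR1 and 12.3 CPM on a mean of 77.8 for TGFBR2.

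SMAD3, the receptor-activated SMAD that binds DNA at target genes, was at 51.0 to 90.3 CPM under vehicle, with a median of 77.4. Under evexomostat it was at 189.9 CPM in replicate 002, 81.1 in 003, 112.9 in 004, 93.8 in 005 and 113.1 in 007. Of the 5 treated libraries, 4 lay above every vehicle library, and replicate 003 lay inside the vehicle range. The log2 fold change was 0.65 (SE 0.21, adjusted p 0.188 in edgeR), and without evexomostat replicate 002 it was 0.42 (adjusted p 0.375 in edgeR). No alternative brought it past the threshold, the adjusted p-values being 0.0798 to 0.375, and the authors' deposited table gives 0.73 with an adjusted p of 0.0836. At an unadjusted p under 0.05 SMAD3 (p 0.00776) and TGFB1 (p 0.00814) were the 2 of the 9 pathway members that passed, both higher, against 4.82% of all tested genes in that direction (0 of the 9 were lower, against 8.55%).

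None of the 3 inhibitory members passed the test. SMAD7, which blocks the type I receptor and recruits SMURF ligases to it, was at 10.4 to 11.7 CPM under vehicle and 9.15 to 11.4 CPM under evexomostat, giving a log2 fold change of -0.12 (SE 0.13, adjusted p 0.769 in edgeR). SMAD6, which acts mainly on BMP signals, was at 1.70 to 2.53 CPM and 1.80 to 2.98 CPM, with 40 to 90 counts per library, a log2 fold change of 0.10 (SE 0.20, adjusted p 0.888 in edgeR). SKIL, which holds SMAD complexes silent on DNA, was at 18.5 to 28.3 CPM and 24.2 to 27.7 CPM, a log2 fold change of 0.19 (SE 0.13, adjusted p 0.574 in edgeR). The highest SKIL level, 28.3 CPM, was in vehicle replicate 001, and the other 5 vehicle libraries lay at or below 24.7 CPM. The groups overlapped in all 3 genes.

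The SMAD6 window is shown because it was the 1 member with a listed start preceded by the palindrome GTCTAGAC, in capitals, on the 250 bases of GRCh38.p14 chr15:66701986-66702235, plus strand.

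SMAD6: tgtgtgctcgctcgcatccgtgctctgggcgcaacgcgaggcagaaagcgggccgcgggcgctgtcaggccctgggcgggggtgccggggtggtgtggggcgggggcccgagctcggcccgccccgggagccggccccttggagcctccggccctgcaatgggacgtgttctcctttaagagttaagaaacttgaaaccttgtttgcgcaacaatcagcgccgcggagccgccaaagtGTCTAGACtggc

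The palindrome begins 12 bases before the SMAD6 start. GGCGCC lay before the SKIL start and before 1 of 5 listed starts of SMAD3 and 1 of 8 of TGFBR1. CAGACA lay before the TGFB2 start, 2 of 8 starts of TGFBR1 and 1 of 5 of SMAD3. All 10 genes matched the RefSeq table.

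**Figure D2:**
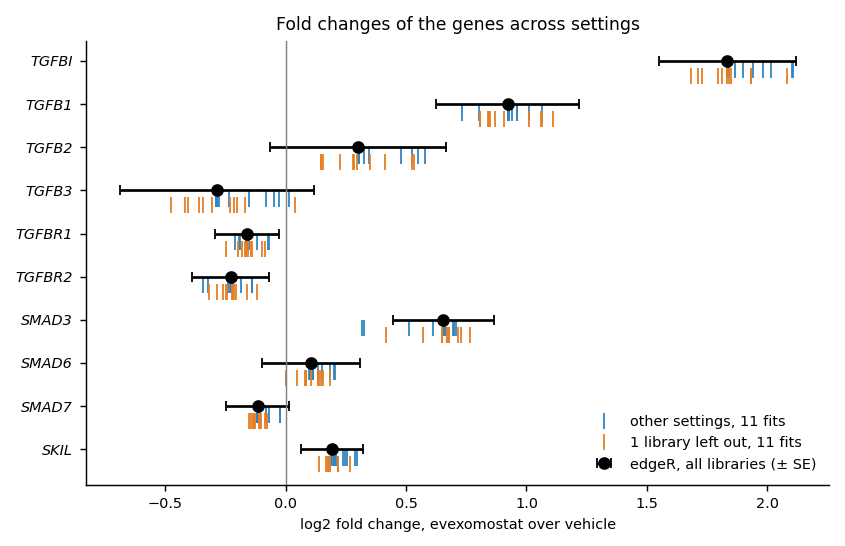
Log2 fold change of evexomostat over vehicle (horizontal axis) for each gene, with black points for the edgeR comparison of all 11 libraries and bars of 1 SE, blue ticks for 11 other settings and orange ticks for 11 fits with 1 library left out. TGFBI stays between 1.68 and 2.11, and the spread of settings crosses 0 for TGFB3 and reaches it for SMAD6.

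Levels between genes were compared per kb of the longest GENCODE transcript, in CPM per kb. Under vehicle TGFBR2 was highest at 16.8 ± 2.67 (SD, n = 6), before SMAD3 at 12.0 ± 2.13, TGFBR1 at 6.85 ± 0.77, TGFBI at 6.12 ± 2.69, TGFB1 at 5.30 ± 2.33 and TGFB2 at 4.60 ± 2.77. The last 4 did not differ beyond their spread. SKIL at 3.17 ± 0.47, SMAD7 at 2.53 ± 0.13, TGFB3 at 1.57 ± 0.96 and SMAD6 at 0.417 ± 0.064 followed. Under evexomostat TGFBI had the highest mean at 21.8 ± 6.34 (SD, n = 5), with SMAD3 at 18.9 ± 6.77, TGFBR2 at 14.4 ± 2.90 and TGFB1 at 10.1 ± 3.09, and the first 3 overlapped in spread. The order depended on the length used. By median transcript length TGFBI ranked 5 of 10 under vehicle and 2 under evexomostat, with SMAD3 at rank 1 in both. By the longest protein-coding transcript TGFBI ranked 3 and 1.

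**Figure D3:**
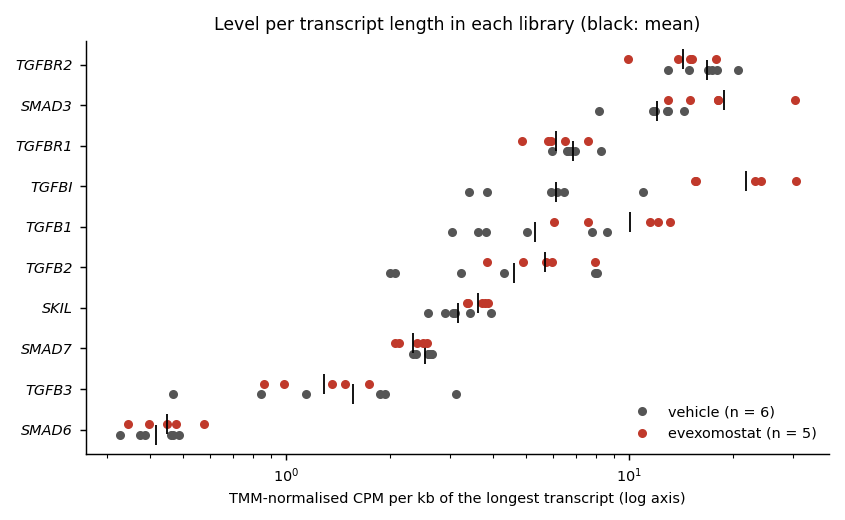
Level per kb of the longest transcript (horizontal log axis, CPM per kb) in each library, grey for 6 vehicle and red for 5 evexomostat tumours, with the group mean as a black tick. TGFBI has the fourth highest mean under vehicle (6.12) and the highest under evexomostat (21.8), and SMAD6 is lowest in both.

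The members were next compared tumour by tumour with group means subtracted from log2 CPM. This scale removes the difference between groups by which TGFBI was chosen, though the test behind that choice also used the spread within groups. Over 45 pairs of members and 11 libraries the median Pearson r was 0.08, with 27 pairs positive and 18 negative. Of these, 4 pairs had an unadjusted p under 0.05 by an exact permutation test within groups (two-sided, 86400 arrangements), and 0 passed after Benjamini-Hochberg adjustment over the 45 pairs. SMAD7 and SKIL, both brakes that the pathway itself induces, ran opposite ways (Pearson r -0.66, exact permutation p 0.00552, adjusted 0.248, Spearman rho -0.65, p 0.0192, adjusted 0.433). Without the 2 libraries farthest from the SMAD7 median r was -0.71. SMAD7 had 214 to 428 counts per library, and its deviations spanned only -0.169 to 0.147. How much of this narrow spread is counting error was not tested. TGFBI and TGFBR1 ran together (Pearson r 0.70, exact permutation p 0.0155, adjusted 0.348, Spearman rho 0.55, p 0.083, adjusted 0.534), and r was 0.48 without the 2 libraries farthest from the TGFBI median. The ligands TGFB1 and TGFB2 also ran together (Pearson r 0.74, exact permutation p 0.024, adjusted 0.360, Spearman rho 0.80, p 0.0134, adjusted 0.433), with r at 0.56 without the 2 farthest from the TGFB1 median. Leaving out vehicle replicate 001 gave r of -0.62, 0.71 and 0.74 for the 3 pairs.

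**Figure D4:**
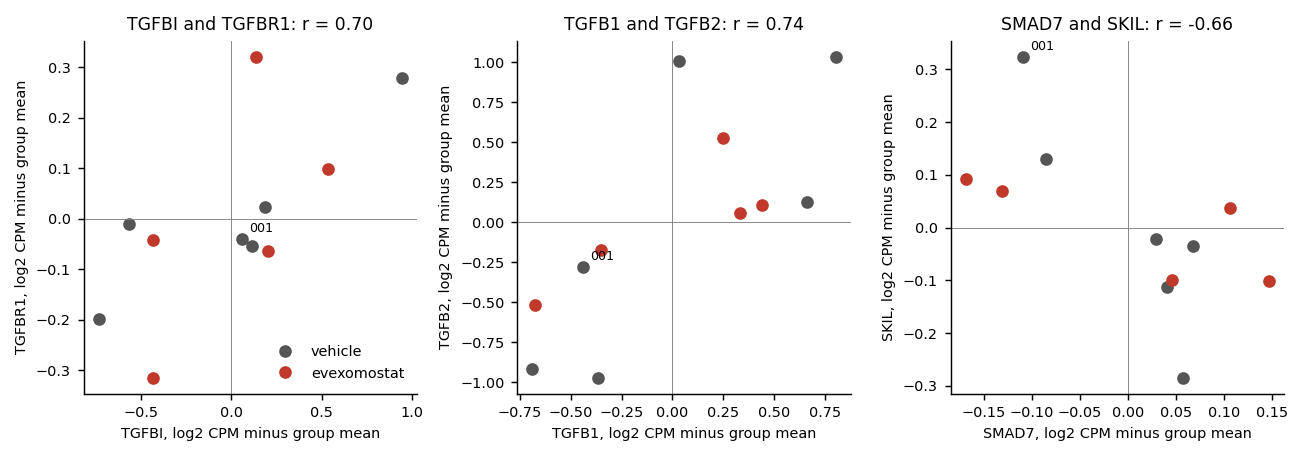
Log2 CPM minus the group mean for 3 pairs of genes, 1 point per library, grey for vehicle and red for evexomostat, with vehicle replicate 001 marked. TGFBI with TGFBR1 (r = 0.70) and TGFB1 with TGFB2 (r = 0.74) slope upward and SMAD7 with SKIL (r = -0.66) downward, and none passed after adjustment over 45 pairs.

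On the same scale, 13230 genes with a mean log2 CPM of at least 1 were ranked by their r with TGFBI. Among the highest were TFPI2, a protease inhibitor of the matrix (r 0.83), the zinc finger gene ZNF134 (0.81), NSDHL of cholesterol synthesis (0.80) and the chromatin remodeller CHD4 (0.78). The 3 lowest were the cytokine gene IL1A (-0.83), CDS1 of phospholipid synthesis (-0.82) and the cytokine gene IL1B (-0.82). IL1A was at 70.9 and 62.7 CPM in vehicle replicates 003 and 004, where TGFBI was lowest, and at 13.9 CPM in evexomostat replicate 007, where TGFBI was highest. These genes were picked for their r, over 11 libraries, so no p is given. Without vehicle replicate 001 the r values were 0.79 to 0.83 for the first 4 and -0.87 to -0.84 for the last 3. None of these 7 passed the test between the groups, with log2 fold changes of -0.80 to 0.08 and edgeR adjusted p-values of 0.237 to 0.854.

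Other genes of the pathway were taken from 8 lists of 99 genes, of which 93 were tested. In edgeR 1 of 93 passed the adjusted threshold, as lower, and 0 as higher, against 0.606% of all tested genes in either direction. DESeq2 called 6 of them, with 649 of 16653 genes called in all. Without vehicle replicate 001 edgeR called 9 of them, with 865 of 16565 genes called in all. Without vehicle replicate 003, 004 or 006, or any 1 of the 5 evexomostat libraries, edgeR called 0 of them. Those last fits called 1 to 79 genes in all. In the main comparison 7 list genes were higher and 15 lower at an unadjusted p under 0.05 (23.7%), against 13.4% of all tested genes. The median log2 fold change was -0.09, beside -0.04 over all genes tested. The lists were written with earlier results known and carry no test of their own.

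The 1 gene that passed was ITGB8, an integrin subunit that releases TGF-beta from its latent complex. ITGB8 was at 36.8 to 93.1 CPM under vehicle (median 55.4) and at 19.6, 34.4, 27.7, 25.8 and 21.2 CPM in evexomostat replicates 002, 003, 004, 005 and 007. Every treated library lay below every vehicle library, a pattern of 1.64% of all tested genes, and the log2 fold change was -1.16 (SE 0.23, adjusted p 0.0462 in edgeR). Its direction was the same in 22 of 22 alternatives, at -1.30 to -0.97, but it passed in 10. It passed without vehicle replicate 001 or 007 and did not pass without vehicle replicate 003 (-0.97, adjusted p 0.0612 in edgeR), 004 (-1.19, 0.0802), 005 (-1.16, 0.074) or 006 (-1.14, 0.0643), or without evexomostat replicate 002 (-1.08, 0.123), 003 (-1.29, 0.0572), 004 (-1.19, 0.122), 005 (-1.16, 0.132) or 007 (-1.10, 0.149). Upper quartile scaling (0.0629) and limma-trend on log2 RPM with pseudocounts of 1 (0.102) and 0.1 (0.108) also left its limma or edgeR adjusted p above the threshold.

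Of the other 9 tested genes for latency and activation none passed. LRRC32, which anchors latent TGF-beta on the cell surface, had a log2 fold change of -1.55 (SE 0.44, adjusted p 0.133 in edgeR). Its vehicle libraries spread from 2.86 to 19.9 CPM and its treated ones from 3.04 to 4.09 CPM. LRRC32 passed in 1 of 11 fits with 1 library left out, without vehicle replicate 001, its lowest library (adjusted p 0.0233 in edgeR). That fit called 865 genes in all, against 101 in the main comparison. LRRC32 also passed in 3 of the 11 other settings, which called 649 to 1059 genes in all. LTBP3, a latent TGF-beta binding protein, was the largest positive value at 0.49 (SE 0.20, adjusted p 0.305 in edgeR).

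Among the SMAD targets, 27 of 27 listed genes were tested, 0 passed in either direction, and the median log2 fold change was -0.08. At an unadjusted p under 0.05 there were 4 higher and 6 lower, beside 4.82% and 8.55% of all tested genes. FN1, the matrix protein fibronectin, was at 232.1 to 1485 CPM under vehicle and 98.8 to 203.7 CPM under evexomostat, without overlap. Its log2 fold change of -2.18 (SE 0.45) had an edgeR adjusted p of 0.0503. It passed in 2 of 11 fits with 1 library left out, without vehicle replicate 001 (adjusted p 0.0132 in edgeR) or 005 (0.0332). FN1 also passed in 4 of the 11 other settings, which called 106 to 1059 genes in all. CCN2, a matricellular target, had 0.69 (SE 0.30, adjusted p 0.325 in edgeR). CCN2 passed in 1 of 22 alternatives, which called 1059 genes in all. IL11, a cytokine target, had the largest positive value of the list at 1.34 (SE 0.46, adjusted p 0.216 in edgeR). It passed in 1 of 11 fits with 1 library left out, without vehicle replicate 001 (1.87, adjusted p 0.0154 in edgeR). In that fit edgeR called 865 genes in all, against 101 in the main comparison. IL11 also passed in 2 of the 11 other settings, which called 733 and 1059 genes in all. Evexomostat replicate 002 had the highest level of SMAD3 and IL11 of the 11 libraries. Without this library IL11 was at 0.94 (adjusted p 0.454 in edgeR).

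**Figure D5:**
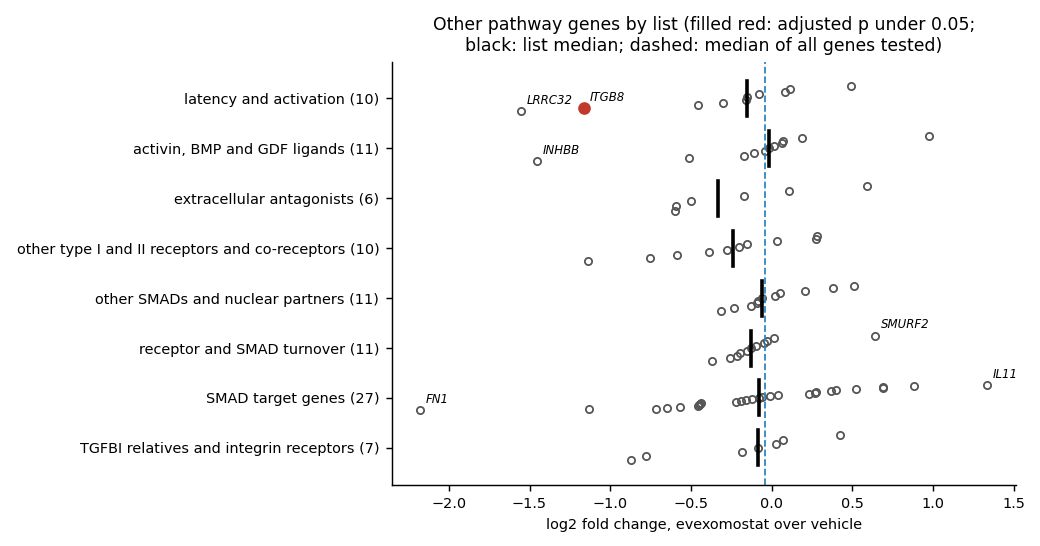
Log2 fold change of evexomostat over vehicle (horizontal axis) for 93 tested genes in 8 lists, with the number tested in brackets, open points for genes that did not pass and a filled red point for ITGB8 (-1.16). Black bars are list medians, between -0.33 and -0.02, and the dashed line is the median of all genes tested (-0.04).

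In the remaining 6 lists edgeR called 0 of 56 tested genes, and 2 were higher and 6 lower at an unadjusted p under 0.05, beside 4.82% and 8.55% of all tested genes. The 11 turnover genes had a median of -0.13, and SMURF2, a ubiquitin ligase that SMAD7 brings to the receptor, had the largest positive value. SMURF2 was at 34.5 to 52.3 CPM under vehicle and at 100.9, 60.4, 62.8, 64.5 and 71.6 CPM in evexomostat replicates 002, 003, 004, 005 and 007. The groups did not overlap, as in 1.33% of tested genes with higher treated levels, and the log2 fold change was 0.64 (SE 0.16, adjusted p 0.0866 in edgeR). SMURF2 passed in 1 of 11 fits with 1 library left out, without vehicle replicate 001 (adjusted p 0.0354 in edgeR). That fit called 865 genes. SMURF2 also passed in 3 of the 11 other settings, which called 649 to 1059 genes in all. Without evexomostat replicate 002, its highest library, it was at 0.49 (adjusted p 0.199 in edgeR). RNF111, another ligase of the pathway, was at the other end with -0.37 (SE 0.19, adjusted p 0.421 in edgeR).

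The shared signal carriers had fold changes within 1 SE of 0. SMAD2 had a log2 fold change of 0.02 (SE 0.12, adjusted p 0.973 in edgeR) and SMAD4 of -0.09 (SE 0.13, adjusted p 0.823 in edgeR), and the list of 11 SMADs and partners had a median of -0.06. Its extremes among genes with a mean log2 CPM of at least 1 were SMAD9, a BMP SMAD, at 0.38 (SE 0.33, adjusted p 0.680 in edgeR, and 0.69 without vehicle replicate 001, its highest library) and the co-activator EP300 at -0.31 (SE 0.19, adjusted p 0.531 in edgeR). EP300 passed in 1 of 11 fits with 1 library left out, without vehicle replicate 001 (adjusted p 0.0143 in edgeR). That fit called 865 genes. EP300 also passed in 2 of the 11 other settings, which called 733 and 1059 genes in all.

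For activin, BMP and GDF ligands (11 tested, median -0.02) the extremes at that expression limit, which also holds for the lists that follow, were INHBB, an activin subunit, at -1.45 (SE 0.45, adjusted p 0.171 in edgeR) and its relative INHBA at 0.19 (SE 0.35, adjusted p 0.880 in edgeR). Below that limit BMP4, a BMP ligand with means of 0.901 CPM under vehicle and 1.78 CPM under evexomostat, was at 0.98 (SE 0.28, adjusted p 0.135 in edgeR). Vehicle replicate 007 held 23.8 CPM of INHBB against 3.98 to 9.97 CPM in the other vehicle libraries. Without it INHBB was at -0.95. INHBB passed in 3 of the 11 other settings, which called 649 to 1059 genes in all, and in 0 of 11 fits with 1 library left out. The 6 tested antagonists had a median of -0.33, with FSTL3, an activin-binding protein, at -0.60 (SE 0.19, adjusted p 0.171 in edgeR) and CHRD, which binds BMPs, at 0.11 (SE 0.38, adjusted p 0.941 in edgeR). The 10 other receptors had a median of -0.24, with BMPR1B at -0.76 (SE 0.48, adjusted p 0.554 in edgeR, and -0.18 without vehicle replicate 005, which held 10.9 CPM against 2.02 to 3.22 CPM in the other vehicle libraries) and ACVR2B at 0.28 (SE 0.22, adjusted p 0.657 in edgeR). Among 7 relatives and integrin receptors of TGFBI (median -0.09), POSTN, its closest FAS1 relative, was at -0.78 (SE 0.70, adjusted p 0.704 in edgeR). Vehicle replicate 001 held 106.6 CPM of POSTN against 4.49 to 21.9 CPM in the other vehicle libraries, and without it the sign turned, to 0.41. ITGA3, an integrin subunit that binds TGFBI, was at 0.03 (SE 0.32, adjusted p 0.986 in edgeR).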

How the data were processed

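RNA from 11 tumours, 6 vehicle and 5 evexomostat, was measured as deposited read counts per gene symbol. Per the submitters' processing notes, bcl2fastq 2.17, STAR 2.7.5c, featureCounts, Subread and edgeR were used, with builds GRCh37 and hg19. Annotation release, strand and handling of mouse reads are not given in the sources used here. The authors' deposited RPM values equal counts over column totals (largest difference 2e-13). The authors' deposited comparison table gives log2 fold changes and p-values.

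Counts were filtered with filterByExpr (minimum count 10, total 15), scaled with TMM and compared with edgeR's quasi-likelihood test (edgeR 4.0.16, limma 3.58.1, DESeq2 1.42.0, R 4.3.3), with p-values adjusted by Benjamini-Hochberg over 16653 genes (threshold 0.05). SEs were computed from the F statistic. Levels are in TMM CPM, and log2 CPM for correlations used a prior count of 2. Totals averaged 32530000 ± 5837000 (SD, n = 6) and 28420000 ± 3852000 (SD, n = 5) counts. The labels do not tie each library to its own animal, so p-values measure only the spread between these samples. No pair of libraries was a duplicate (chi-square per degree of freedom at least 15.5 over genes with 10 counts in a pair).

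The members and lists were chosen with earlier results of these data known. Named genes were the 10 members, list genes past the threshold, the largest and smallest fold change of each list at a mean log2 CPM of at least 1, CCN2, SMAD2 and SMAD4, and the 5 highest and 3 lowest correlations with TGFBI. A named gene of the target list and 1 of the 5 are not reported here. Genes and named values outside this rule were chosen after their values were seen. Marker lists held 9 luminal, 10 macrophage, 8 fibroblast, 6 endothelial, 9 muscle and 4 platelet genes. Lengths came from GENCODE release 29 and promoters from RefSeq (GRCh38.p14). In data simulated for 16653 genes edgeR recovered 55% of 2-fold and 91% of 4-fold changes, with 5.19% false calls. The simulation drew genes independently and held no library like vehicle replicate 001, so these rates may not carry over to the data.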

Additional observations from a re-analysis of the deposited data

How the results depend on the processing

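The length by protein-coding transcripts and the permutation of member pairs were added after seeing the data. For each change in the next sentences the cause was not tested. The 101 genes past the threshold (29 higher, 72 lower) became 649 with DESeq2 (200 and 449) and 1059 with limma-voom and quality weights (384 and 675). The lower genes numbered 42 after upper quartile scaling and 31 and 30 in the limma-trend fits at RPM pseudocounts of 1 and 0.1. With 1 library left out the total ran from 1 to 865 (higher 1 to 328, lower 0 to 537), members from 0 to 1, list genes from 0 to 9, and TGFBI from 1.683 to 2.082. The highest counts came without vehicle replicate 001. The share of calls that were higher was 28.7% in the main comparison, 40% after upper quartile scaling, and 58.1% and 55.9% in the RPM fits, which moved the median gene by 0.11 and 0.12. The 1 list gene past the threshold became 0 with upper quartile scaling and both RPM fits, 2 without a count filter, 6 with DESeq2 and 11 with quality weights.

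Both groups carry replicate numbers 003, 004, 005 and 007, but same-numbered libraries deviated together at only -0.27, 0.07, 0.05 and -0.10, so the numbers are not taken as pairs. On those 8 libraries a replicate block called 107 genes and 2 list genes, and the fit with no replicate block 733 genes (225 higher, 508 lower) and 9 list genes. With the block ITGA3 was at -0.102 and POSTN at 0.987, and with no replicate block at -0.157 and 0.729.

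Signs turned, none past the threshold, for 7 genes. With 1 library left out TGFB3 ran from -0.478 to 0.037, SMAD6 from -5e-04 to 0.184, SMAD2 from -0.039 to 0.086, CHRD from -0.184 to 0.269, ITGA3 from -0.152 to 0.162 and POSTN from -1.001 to 0.413. At an RPM pseudocount of 0.1 TGFB3 was at 0.012, and SMAD4 was at 0.011 and 0.012 in the RPM fits. Quality weights gave -0.019 for SMAD2, -0.233 for CHRD, -0.088 for ITGA3 and 0.778 for POSTN. POSTN was also at 0.244 with limma-voom and at 0.157 and 0.21 in the RPM fits. At these depths 3 counts are 0.0764 to 0.132 RPM, which covers counting error only.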
